A study of Mus musculus with 11 samples.

Results

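Regulatory T cells restrain other immune cells partly through molecules that they secrete. The genes described here encode 6 such mediators: Il10, Ebi3, Il12a, Fgl2, Areg and Penk. They were chosen by name, with earlier results of these data known, and every probe set of these genes in the deposited value table was used. Of the 6 genes, 5 had a probe set in the gene table of the array, with 6 probe sets between them, out of 18193 genes measured. Areg, an epidermal growth factor (EGF) family ligand, was listed for none of the probe sets and was not analysed here. Fgl2 had 2 probe sets and the other genes 1 each. Each gene is given by whichever of its probe sets was brightest on average over the 11 arrays.

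Each array was hybridised with RNA from CD4+ T cells of the spleen and lymph nodes of mice between 6 and 8 weeks of age, enriched with a bead kit for CD4 and then sorted in repeat, with GFP among the sort criteria. TN arrays (n = 3) held naïve cells negative for Foxp3, the lineage factor of regulatory T cells. Arrays labelled Treg (n = 5) held Foxp3-positive cells. GFPKO arrays (n = 3) held GFP-positive cells of Foxp3GFPKO/WT mice, which carry a wild-type Foxp3 allele beside a null allele marked by GFP. Such cells have switched on the Foxp3 locus but, where the null allele is the active one, make no functional Foxp3, in a host that still has normal regulatory T cells. The genotype of the TN and Treg mice and their GFP reporter are not given in the labels. Strain, sex and the number of mice per group are not in the labels either, so the replicate spread behind each p-value may be technical only.

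All values are on the log2 scale, so differences between groups are log2 fold changes. To mark the signal of a gene that is off, 23 genes of liver, heart, pancreas, testis and other organs were read on the same arrays. Their mean levels ran from 2.11 to 5.63 with a median of 3.68, and the 90th percentile, 5.18, is called the silent gene level here. A probe set's signal also depends on its own sequence, so this level is a guide and not a detection limit. It lies between the means of the listed genes Apoa1 (4.65) and Actn2 (5.31). Actn2 itself differed by group, at 6.07, 5.53 and 4.19 in TN, Treg and GFPKO. Ebi3 in GFPKO (5.14), Il10 in Treg (5.00) and Penk in TN (4.86) were above Apoa1, so their place under the level depends on Actn2. Where the lower group of a difference was at or below it, the measured difference is an estimate that may understate the true one.

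The labels were first checked on Foxp3 and on sex-linked genes. The only Foxp3 probe set read 6.75 to 7.19 in GFPKO, 3.12 to 3.99 in TN and 3.29 to 3.64 on the arrays labelled Treg, which goes against the Treg label, and whether it reads a part of the transcript that a reporter allele lacks was not known. Of 8 Treg markers, the 7 others (Il2ra, Itgae, Ctla4, Tnfrsf4, Ikzf2, Ikzf4 and Tnfrsf18) were higher on those arrays than in TN, and every direction given for Treg rests on the label. Xist read 11.07 to 11.85 in GFPKO and at most 3.96 elsewhere, while the Y-linked gene Eif2s3y read at most 3.38 in GFPKO and at least 7.35 elsewhere. GFPKO arrays thus had a female pattern and the others a male one, so sex and genotype cannot be told apart in any comparison with GFPKO. Correlations between arrays of a group, across genes, were at least 0.994 in TN, 0.990 in Treg and 0.979 in GFPKO. The difference between the actin control's 3′ and 5′ signals, a sign of RNA integrity, was 0.77, 0.83 and 0.45 in GFPKO replicates 1, 2 and 3, against 0.38 to 0.61 elsewhere. The CD4 T cell markers Cd3e, Cd3d, Cd3g, Cd4, Cd5 and Cd28 were above the silent gene level in every group. Of these only Cd28 was called, lower in Treg than in TN by 0.63 and than in GFPKO by 0.73 (limma, adjusted p = 0.0237 and 0.0118).

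These mediators act by different routes. IL-10 is a homodimeric cytokine that signals through the receptor chains Il10ra and Il10rb to STAT3 and damps activation of macrophages and dendritic cells. Ebi3 is a soluble receptor-like chain that has to pair with an alpha chain to act as a cytokine: with the Il12a product p35 it forms IL-35, and with Il27 it forms IL-27. Fgl2 is a secreted relative of fibrinogen that inhibits dendritic cells and B cells by binding the Fc receptor Fcgr2b. Penk encodes proenkephalin, a precursor that proteases cut into enkephalins, opioid peptides that act on the receptors Oprd1 and Oprm1. Areg, best known in tissue-resident regulatory T cells, promotes epithelial repair through Egfr.

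Promoter sequence was at hand for Ebi3, Fgl2 and Il12a among the measured genes. The 250 bases before the annotated start are shown because they let Ebi3 and Fgl2, which were both higher on arrays labelled Treg than in both other groups (below), be set beside Il12a, the partner chain of Ebi3, which was not. The sequences are from RefSeq on GRCm38.p6, plus strand, 5′ to 3′: Ebi3 at chr17:55952373-55952622, Fgl2 at chr5:21372423-21372672 and the first of the listed Il12a starts at chr3:68690394-68690643. Capitals mark matches to any of 6 motifs searched on both strands: forkhead TGTTTAC, Runx TGTGGT, AP-1 TGANTCA, STAT TTCNNNGAA, the cyclic AMP response element TGACGTCA and an NF-kB motif, GGGAA followed by any 3 bases and CC.
Ebi3: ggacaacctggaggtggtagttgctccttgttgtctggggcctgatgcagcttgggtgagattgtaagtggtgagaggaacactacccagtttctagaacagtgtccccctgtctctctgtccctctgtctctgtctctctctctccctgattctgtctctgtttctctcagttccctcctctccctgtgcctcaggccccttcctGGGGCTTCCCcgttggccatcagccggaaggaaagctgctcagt
Fgl2: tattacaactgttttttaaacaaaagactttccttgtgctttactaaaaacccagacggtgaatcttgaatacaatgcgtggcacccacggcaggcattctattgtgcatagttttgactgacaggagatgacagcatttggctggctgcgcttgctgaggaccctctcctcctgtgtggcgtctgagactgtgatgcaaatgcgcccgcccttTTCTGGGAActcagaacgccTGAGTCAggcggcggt
Il12a: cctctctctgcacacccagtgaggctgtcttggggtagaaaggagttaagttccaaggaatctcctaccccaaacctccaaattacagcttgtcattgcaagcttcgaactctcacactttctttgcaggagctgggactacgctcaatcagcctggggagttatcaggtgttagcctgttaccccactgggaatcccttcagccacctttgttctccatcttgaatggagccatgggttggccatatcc
The Ebi3 window held GGGGCTTCCC, a match to the NF-kB motif on the minus strand, 44 to 35 bases before the start; 4.95% of 32817 mouse promoter windows of the same length held such a match. The Fgl2 window held a STAT match, TTCTGGGAA, 36 to 28 bases before the start, and an AP-1 match, TGAGTCA, 16 to 10 bases before it, which do not overlap each other. STAT and AP-1 matches occurred in 7.01% and 6.75% of all windows. This Il12a window held none of the 6 motifs, while that of the other listed start held a Runx match, TGTGGT, 126 to 121 bases before it, a motif found in 14.0% of all windows. No forkhead match, the motif bound by the Foxp3 family, lay in the 3 windows shown, against 3.16% of all windows. A match is a description of letters only.

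Set against TN, 4 of the 5 measured mediators rose on the arrays labelled Treg. Penk rose by an estimated 22.9-fold, Ebi3 by an estimated 15.6-fold and Fgl2 by an estimated 7.26-fold. Il10 rose by 1.57 on the log2 scale, with both group means under the silent gene level. In GFPKO cells Il10 rose over TN by an estimated 5.95-fold and Penk by 3.26-fold, while Ebi3, Fgl2 and Il12a did not pass the test. The direct comparison of Treg with GFPKO found Ebi3, Penk and Fgl2 higher in Treg and Il10 higher in GFPKO. Il12a passed the test in none of the 3 comparisons. Calls are at an adjusted p under 0.05 (limma, Benjamini-Hochberg over all genes). The share of all genes called higher was 6.54% for Treg over TN, 2.64% for GFPKO over TN and 6.88% for Treg over GFPKO, and the share called lower was 3.42%, 3.02% and 2.55%. Without regard to the test, the arrays did not overlap, in the higher direction, for 11.7%, 7.06% and 11.1% of all genes, and for 3.31% Treg lay wholly below GFPKO. Of the genes called, 65.6%, 46.6% and 73.0% were higher in these 3 comparisons, and 43.5%, 47.8% and 42.9% after each array was centred on its median, which moved genes by -0.14, 0.02 and -0.17; no mediator changed direction or lost its call under that scaling, except that the Il12a difference of Treg from GFPKO, never called, went from 0.16 to -0.01. The median log2 difference over the 5 genes was 2.86, 0.70 and 2.16 in these 3 comparisons, beside 0.03, -0.04 and 0.08 over all genes. Fewer producing cells and less RNA per cell cannot be told apart in sorted bulk samples.

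**Figure D1:**
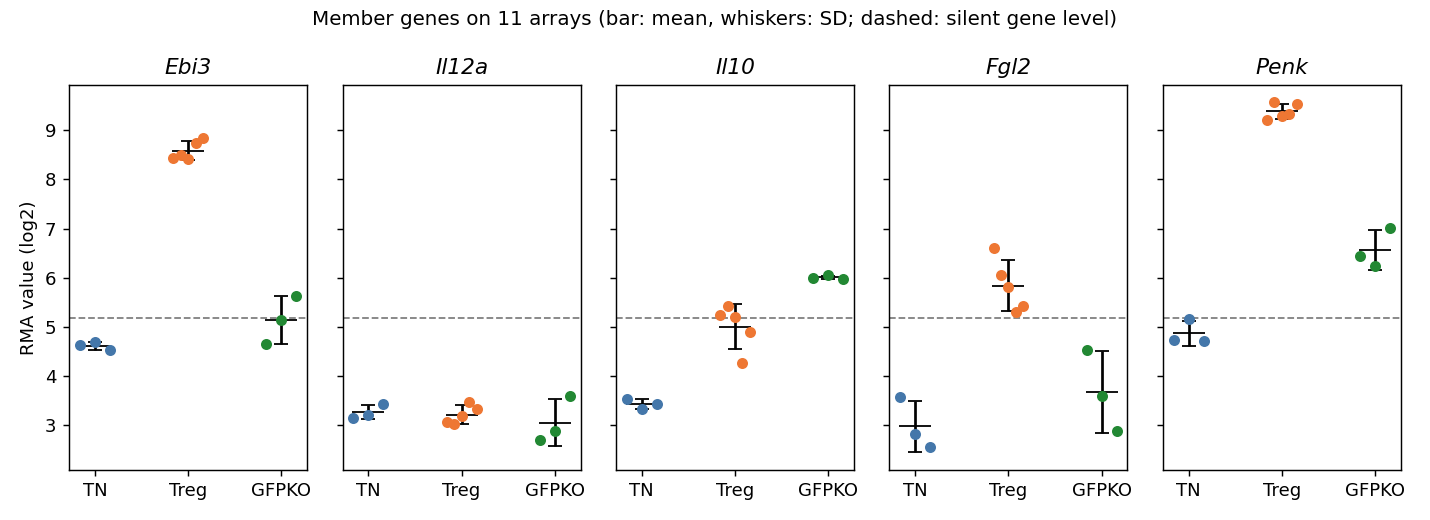
Level of each measured mediator (RMA value, log2) on every TN, Treg and GFPKO array; points are arrays, bars are means, whiskers are SD, and the dashed line is the silent gene level of 5.18. Ebi3 and Penk are highest in Treg without overlap, Il10 is highest in GFPKO, and every Il12a point lies under the line.

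**Figure D2:**
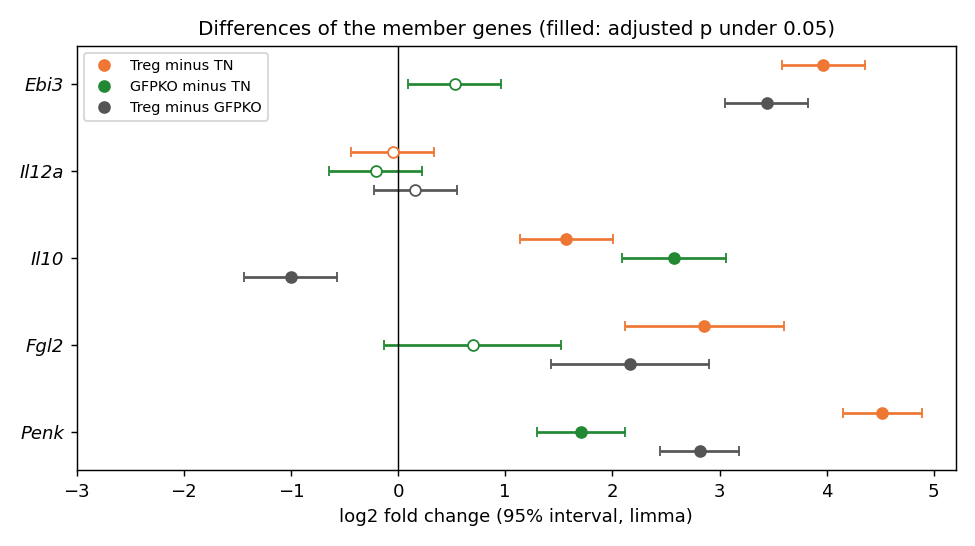
Log2 fold change of each mediator in the 3 comparisons, with 95% intervals from limma; filled points had an adjusted p under 0.05. The Treg minus GFPKO difference is positive for Ebi3, Fgl2 and Penk and negative for Il10 (-1.0), while all 3 Il12a intervals include 0.

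Ebi3, the beta chain, read 8.43, 8.49, 8.42, 8.73 and 8.84 on the 5 Treg arrays, 4.62, 4.69 and 4.53 in TN, and 4.65, 5.15 and 5.63 in GFPKO. Every Treg array thus lay well above every other array, while TN and GFPKO overlapped and both had means under the silent gene level. The mean was 8.58 ± 0.19 in Treg (SD, n = 5), 4.61 ± 0.08 in TN (n = 3) and 5.14 ± 0.49 in GFPKO (n = 3). Treg exceeded TN by 3.97 ± 0.18 (SE, adjusted p = 9.7e-10), the increase ranked 14 of 18193. It exceeded GFPKO by 3.44 ± 0.18 (adjusted p = 1.6e-08), or an estimated 10.9-fold, which ranked 5 among increases in that comparison. GFPKO and TN differed by 0.53 (95% interval 0.10 to 0.96, adjusted p = 0.177). The GFPKO value varied with the array: replicate 1 was the lowest and replicate 3 the highest, and without replicate 1 the difference from TN was 0.77 and passed the test (adjusted p = 0.014). With the actin difference as a covariate the excess of Treg over GFPKO was 3.23 (adjusted p = 2.1e-07).

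Il12a, whose product pairs with Ebi3 in IL-35 and with Il12b in IL-12, stayed at the signal of silent genes on every array. Its probe set read 3.15, 3.21 and 3.43 in TN, 3.06, 3.01, 3.18, 3.48 and 3.33 in Treg, and 2.69, 2.87 and 3.59 in GFPKO, and all groups overlapped. Group means were 3.26 ± 0.15, 3.21 ± 0.19 and 3.05 ± 0.47. The difference of Treg from TN was -0.05 (95% interval -0.44 to 0.34, adjusted p = 0.927), that of GFPKO from TN -0.21 (-0.64 to 0.22, adjusted p = 0.708) and that of Treg from GFPKO 0.16 (-0.23 to 0.55, adjusted p = 0.660). With every group this close to the signal of silent genes, a low level of Il12a RNA, or a change in one, could not have been detected, so of the IL-35 pair only Ebi3 was measured above the silent gene level. No contrast was called for 84.3% of all genes.

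The other genes of this cytokine family gave no further candidates. Of the 12 listed genes of the IL-10 and IL-12 families 9 were measured, and Ebi3 and Il10 were the only ones called in any comparison. Il12b read 2.84, 2.87 and 2.98 in TN, Treg and GFPKO, and Il23a, the p19 chain of IL-23, 2.60, 2.68 and 2.51, all group means under the silent gene level. Il6, Il20 and Il24 were also under it in every group. Clcf1 was above it, at 6.96, 6.59 and 6.75, and was not called. Il27, the alpha chain with which Ebi3 forms IL-27, had no probe set in the gene table, so that pair was not analysed here.

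Receptor chains of these cytokines were measured on the same cells. Of 12 measured genes of their receptors, Janus kinases and STATs, 3 rose and 1 fell in Treg against TN. In GFPKO 1 rose against TN and none fell, and in Treg against GFPKO 3 rose and 1 fell. Il10ra, the ligand-binding chain of the IL-10 receptor, read 6.89 ± 0.15 in Treg (n = 5), 5.35 ± 0.49 in TN (n = 3) and 5.42 ± 0.50 in GFPKO (n = 3). Its increase was 1.54 ± 0.22 over TN (adjusted p = 0.00017) and 1.48 ± 0.22 over GFPKO (adjusted p = 0.00054), with no overlap of Treg with the other arrays. Il10rb, the shared second chain, was higher in Treg by 0.90 over TN and 0.80 over GFPKO. In GFPKO both chains lay near TN (differences 0.07 and 0.09, adjusted p = 0.948 and 0.815). Treg thus had the higher receptor signal and GFPKO the higher Il10 signal. Dimmer probe sets of both genes, under the silent gene level, were not called, and the Il10rb excess over GFPKO was not called when its probe sets were averaged (adjusted p = 0.0758).

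The chains used by IL-12, IL-27 and IL-35 differed in their pattern. Il12rb1, part of the receptors for IL-12 and IL-23, rose by 2.22 in Treg and 1.30 in GFPKO against TN (adjusted p = 4.5e-07 and 0.00077), and Treg exceeded GFPKO by 0.92 (adjusted p = 0.0042). Its partner Il12rb2 was under the silent gene level in all groups, at 2.65, 2.84 and 2.57 in TN, Treg and GFPKO. Il6st (gp130) read 10.23, 10.15 and 10.20, and Il27ra 9.93, 10.07 and 9.95, in the same order, with no call. Jak2 was lower in Treg than in GFPKO by 0.83 (adjusted p = 0.0099), a call lost with the actin covariate (adjusted p = 0.0987). Its other probe set, above the silent gene level, gave -0.75 and was not called (limma, adjusted p = 0.0738). Il6ra fell by 0.60 in Treg against TN (adjusted p = 0.0417), and this call was lost in 9 of 19 alternative fits, 7 of which left out 1 TN or Treg array. Another Il6ra probe set above the silent gene level gave -0.14 with no call (limma, adjusted p = 0.757).

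Il10 was highest in GFPKO, lower in Treg and lowest in TN. Its probe set read 6.00, 6.04 and 5.97 in GFPKO, 5.24, 5.42, 5.20, 4.26 and 4.89 in Treg, and 3.54, 3.33 and 3.43 in TN. The 3 groups did not overlap: all GFPKO arrays were above all Treg arrays and all Treg arrays above all TN arrays. Means were 6.00 ± 0.04 (n = 3), 5.00 ± 0.46 (n = 5) and 3.43 ± 0.10 (n = 3), of which the GFPKO mean alone was above the silent gene level. Against TN, GFPKO was higher by 2.57 ± 0.23 (adjusted p = 2.7e-06) and Treg by 1.57 ± 0.20 (adjusted p = 6.1e-05). Treg was lower than GFPKO by 1.0 on the log2 scale (log2 difference -1.0 ± 0.20, adjusted p = 0.0054), or an estimated 2.0-fold. Replicate 4 was the lowest of the Treg arrays, and without it the difference from GFPKO was -0.82 (adjusted p = 0.0023). This order, with Treg called above TN and GFPKO called above Treg, was that of 27 genes, 0.148% of those tested.

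Many transcription factors known to act on the Il10 gene were also above TN. Of 12 such factors 9 rose and none fell in Treg against TN, 6 rose and 1 fell in GFPKO against TN, and 3 rose and 2 fell in Treg against GFPKO. The median log2 difference of the 12 was 1.07, 1.09 and 0.09, beside the medians over all genes given above. The 6 factors called higher than TN in both groups were Ahr, Maf, Irf4, Nfil3, Bhlhe40 and Ikzf3. Ahr, the aryl hydrocarbon receptor, read 4.76 ± 0.13, 7.04 ± 0.30 and 8.53 ± 0.86 (SD) in the 3 TN, 5 Treg and 3 GFPKO arrays. Maf, a direct activator of Il10 in helper T cells, read 7.78 ± 0.13, 9.38 ± 0.31 and 10.67 ± 0.64 in the same order. These were the factors of the list called higher in GFPKO than in Treg, by 1.49 (adjusted p = 0.0032) and 1.29 (adjusted p = 0.0025). For Maf, 2 further probe sets above the silent gene level gave log2 differences of Treg from GFPKO of -1.54 and -2.12 that were called (adjusted p = 0.0051 and 0.00024), and another 2 gave -0.31 and -0.40 that were not (adjusted p = 0.304 and 0.117), so the Maf difference depends on the probe set.

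The other factors had other orders. Irf4 read 8.20 ± 0.13 in Treg and 8.30 ± 0.15 in GFPKO against 6.03 ± 0.27 in TN. Bhlhe40, which can repress Il10, rose by 2.56 in Treg and 1.82 in GFPKO against TN, and Treg exceeded GFPKO by 0.74 (adjusted p = 0.0058). Batf was higher in Treg than in TN by 0.87 and than in GFPKO by 1.11. Tbx21, which encodes the Th1 factor T-bet, fell by 1.63 in GFPKO against TN (adjusted p = 2.2e-05) and was at 6.52 ± 0.09 in Treg, beside 6.48 ± 0.19 in TN. Prdm1 (Blimp-1) rose by 1.04 in Treg against TN (adjusted p = 0.0121), which was lost without TN replicate 3 (adjusted p = 0.0987) and stood at the threshold without TN replicate 2 (adjusted p = 0.05). Stat3 and Ets1 were not called in any comparison.

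**Figure D3:**
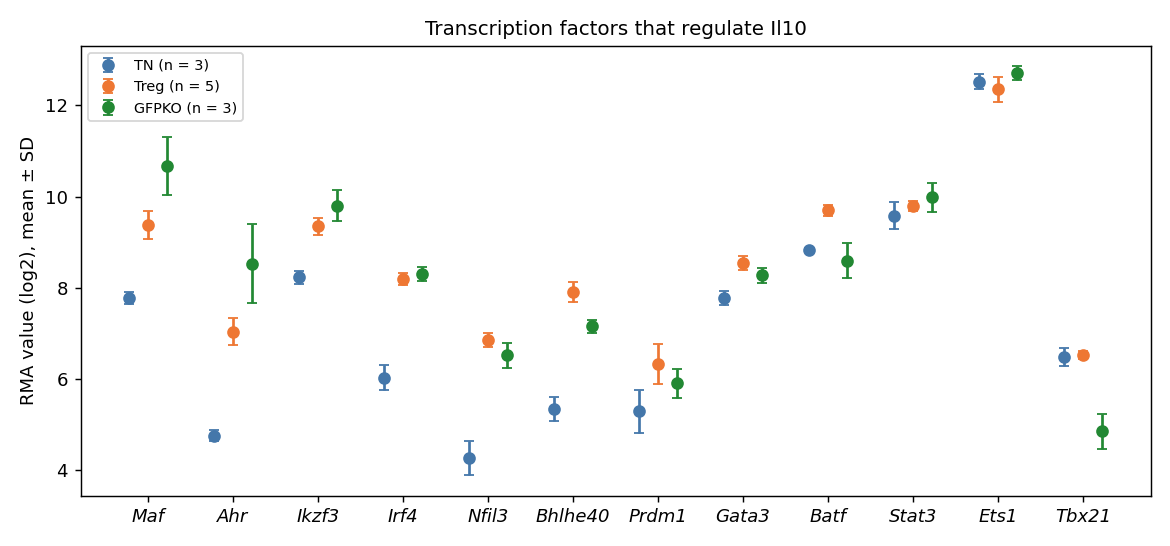
Mean level (RMA value, log2; whiskers are SD) of 12 transcription factors that act on Il10, in TN, Treg and GFPKO. Maf and Ahr have the order of Il10, with GFPKO highest (10.67 and 8.53), while Tbx21 is lowest in GFPKO (4.85).

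Fgl2 was the most variable mediator. Its brighter probe set read 6.60, 6.05, 5.80, 5.30 and 5.42 in Treg, 3.56, 2.81 and 2.55 in TN, and 4.54, 3.59 and 2.88 in GFPKO. Each Treg array was above every other array, and TN and GFPKO overlapped under the silent gene level. The means were 5.83 ± 0.52 (n = 5), 2.97 ± 0.53 (n = 3) and 3.67 ± 0.83 (n = 3). Treg was higher by 2.86 ± 0.35 over TN (adjusted p = 3.2e-05) and by 2.16 ± 0.35, or an estimated 4.48-fold, over GFPKO (adjusted p = 0.00093). GFPKO minus TN was 0.70 (95% interval -0.13 to 1.52, adjusted p = 0.417). That difference was 0.26 without GFPKO replicate 1, and 1.09 without GFPKO replicate 3 (adjusted p = 0.081). With the replicate number as a block it passed the test (0.70, adjusted p = 0.0287).

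The dimmer Fgl2 probe set gave smaller differences. It read 5.94, 4.96, 5.37, 4.77 and 4.32 in Treg, 3.94, 3.22 and 2.95 in TN, and 3.85, 4.39 and 3.31 in GFPKO. Here the lowest Treg array lay under the highest GFPKO array, so these groups overlapped, and all 3 group means were under the silent gene level. In a fit over all 34945 probe sets, of which 4.86% were called higher for Treg over TN and 4.9% for Treg over GFPKO, it was higher in Treg by 1.70 (adjusted p = 0.0037) and 1.22 (adjusted p = 0.0347). Both probe sets thus had Treg highest, with differences that varied by over 1 log2 unit against TN (2.86 and 1.70).

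**Figure D4:**
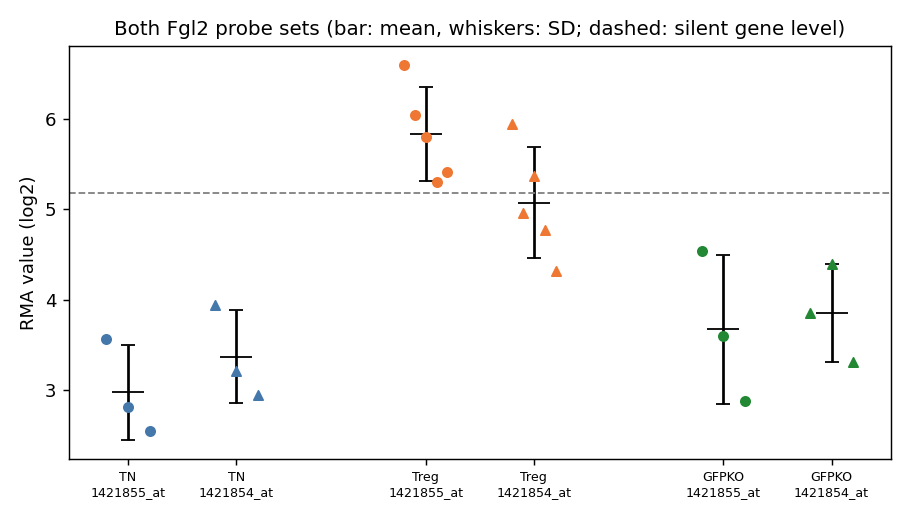
Both Fgl2 probe sets (RMA value, log2) on every array; circles are the brighter and triangles the dimmer probe set, bars are means, whiskers are SD, and the dashed line is the silent gene level of 5.18. The brighter probe set separates the Treg arrays (5.30 to 6.60) from all others, while for the dimmer one the lowest Treg array, at 4.32, lies below a GFPKO array at 4.39.

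Among relatives and receptors of Fgl2, Fgl1, Fga, Fgb and Fgg were under the silent gene level in each group and were not called. Fcgr2b, the inhibitory Fc receptor that binds Fgl2, read 6.75, 6.87 and 6.80 in TN, Treg and GFPKO, with no call. Fcgr3 fell by 1.34 in Treg and by 1.20 in GFPKO against TN (adjusted p = 0.00018 and 0.0025), at group means of 5.22, 3.88 and 4.01. Angptl4 was higher in Treg than in GFPKO by 0.75 (adjusted p = 0.00096). Of 10 measured genes of this list, 1 rose and 1 fell in Treg against TN, none rose and 1 fell in GFPKO against TN, and 2 rose and none fell in Treg against GFPKO.

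Macrophages and dendritic cells also make Fgl2, Ebi3 and Il10, so their markers were read beside these genes. Of 15 myeloid and dendritic markers 7 fell and 1 rose in Treg against TN, 7 fell and none rose in GFPKO against TN, and none was called between Treg and GFPKO. In that last comparison 4 had an unadjusted p under 0.05: Cst3, Fcer1g and Itgax, with Treg higher by 0.51, 0.40 and 0.36, and Mpeg1, with a difference of -0.61. Their summed signal, on a linear scale, was 1373 to 1784 in TN, 1141 to 1858 in Treg and 895 to 1441 in GFPKO. Tyrobp fell by 3.31 and Ly86 by 1.90 in Treg against TN, while Lyz2, the marker that rose, was higher by 1.43 (adjusted p = 0.0406), and its relative Lyz1 differed by 1.41 (adjusted p = 0.104). Cd14, Itgam, Itgax, Adgre1 and Cd68 were under the silent gene level in every group. The part of myeloid signal in the mediators' results was not tested. Of 8 B cell markers, Ms4a1, Cd79a, Pax5, Ebf1 and Blnk were under that level in all groups, and their list summed to 4162 to 4317 in TN, 2959 to 3530 in Treg and 2183 to 2579 in GFPKO. Cd79b, a B cell receptor chain, read 4.36, 7.63 and 6.01 in TN, Treg and GFPKO, the order of Penk, with Treg higher by 3.27 than TN (adjusted p = 3.6e-09) and by 1.61 than GFPKO (adjusted p = 2.3e-05), and GFPKO higher by 1.65 than TN (adjusted p = 4.3e-05). Cd22 and Ighm were higher in Treg than in GFPKO by 0.94 and 0.45 (adjusted p = 0.0013 and 0.0196). Ighm, Ms4a1 and Blnk were lower in Treg than in TN by 0.46, 0.87 and 0.62 (adjusted p = 0.015, 0.0014 and 0.0037). In GFPKO, Ms4a1, Cd22, Ighm and Blnk fell against TN by 1.22, 1.02, 0.91 and 0.54. Of the 8 B cell markers, 1 rose and 3 fell in Treg against TN, and 1 rose and 4 fell in GFPKO against TN. In Treg against GFPKO 3 rose and none fell. The epithelial adhesion gene Epcam read 7.39 in Treg, 4.86 in TN and 4.80 in GFPKO, the order of Ebi3, with Treg higher by 2.53 and 2.59 (adjusted p = 1.5e-07 and 4.5e-07). Of the other 3 epithelial markers, all under the silent gene level, Krt18 was higher in Treg than in TN by 0.50 (adjusted p = 0.0445) and Cdh1 lower in GFPKO than in TN. All 4 measured naïve T cell markers, Dapl1, Satb1, Lef1 and Ccr7, were lower in Treg than in TN and than in GFPKO, and Dapl1 and Lef1 were lower in GFPKO than in TN. The part of these markers in the mediators' results was not tested. Markers of stromal cells and of mast cells and type 2 innate lymphoid cells were at or under the silent gene level in every group, 7 of 7 and 5 of 5. Of 2 CD8 T cell markers Cd8a was under it, while Cd8b1 read 7.60, 7.22 and 6.98 in TN, Treg and GFPKO. Of 3 NK cell markers only Eomes was above it, at 6.12, 5.46 and 5.47, called lower in Treg and GFPKO than in TN. Of 5 plasma cell markers, Xbp1 rose by 0.66 in Treg and 0.60 in GFPKO against TN, and Mzb1 fell by 0.79 in Treg. Their part in the results was not tested either.

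Penk had the largest difference of the mediators, and it was graded. Its probe set read 9.20, 9.57, 9.29, 9.34 and 9.52 in Treg, 6.44, 6.24 and 7.02 in GFPKO, and 4.73, 5.16 and 4.71 in TN. No groups overlapped, and GFPKO lay between the others. Means were 9.38 ± 0.16 (n = 5), 6.57 ± 0.40 (n = 3) and 4.86 ± 0.25 (n = 3). Treg exceeded TN by 4.52 ± 0.17 (adjusted p = 1.7e-10), the increase ranked 4 of 18193. GFPKO exceeded TN by 1.70 ± 0.19 (adjusted p = 3.5e-05), and Treg exceeded GFPKO by 2.81 ± 0.17 (adjusted p = 7.5e-08), or 7.04-fold. TN was under the silent gene level, so the differences from TN may understate the true ones, but Treg and GFPKO were both above it. GFPKO replicate 3, the array with the lowest actin difference of its group, was the highest of the 3, and without it the excess of Treg over GFPKO was 3.04. This graded order, with all 3 comparisons called, was shared by 124 genes, 0.682% of those tested, whereas the order of Ebi3 and Fgl2, with Treg called above both others and GFPKO not called against TN, was shared by 492 genes, 2.70%.

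Proenkephalin has to be cleaved and trimmed before enkephalins are released, and enzymes of that pathway were read with it. Of 14 measured genes for opioid precursors, processing and receptors, 4 rose and 1 fell in both Treg and GFPKO against TN, and 1 rose and 1 fell in Treg against GFPKO. Cpe, carboxypeptidase E, which trims basic residues from peptide ends, read 3.02, 3.39 and 2.95 in TN, 5.64, 4.97, 5.81, 5.51 and 5.34 in Treg, and 6.44, 7.09 and 7.08 in GFPKO. The groups did not overlap and their order was that of Il10, not of Penk. Cpe was higher than TN by 2.34 ± 0.20 in Treg (adjusted p = 7.0e-07) and 3.75 ± 0.22 in GFPKO (adjusted p = 3.7e-08), and lower in Treg than in GFPKO by 1.41 (adjusted p = 0.00030). Another Cpe probe set, under the silent gene level, was not called. Furin, a proprotein convertase, rose by 0.70 in Treg and 0.98 in GFPKO against TN (adjusted p = 0.0161 and 0.0062). The former call was lost without TN replicate 1 or 3 (adjusted p = 0.0798 and 0.0694) and with the replicate number as a block (adjusted p = 0.0981). Cpd rose by 0.57 and 0.53, but the second of these calls was lost in 14 of 19 alternative fits and the first in 3. Those 3 were centred arrays (adjusted p = 0.0632), a second quantile normalisation (adjusted p = 0.0591) and the fit without TN replicate 1 (adjusted p = 0.0554). The count of genes that rose in Treg was 2 without that array. Another Cpd probe set above the silent gene level gave larger differences from TN, 1.97 in Treg and 1.94 in GFPKO (adjusted p = 3e-05 and 0.0002), as did a dimmer one, 1.92 and 1.68, while 4 more under that level were not called. Ctsl, cathepsin L, fell by 1.08 and 0.99. The second of these calls was lost with the actin covariate (adjusted p = 0.0573) and with averaged probe sets (adjusted p = 0.0721). Another Ctsl probe set, under the silent gene level, gave 0.05 in both comparisons with no call.

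The endocrine convertase Pcsk1 was under the silent gene level (3.18, 3.20 and 3.12 in TN, Treg and GFPKO), and Pcsk2 had no probe set in the gene table. The opioid receptors Oprm1, Oprd1, Oprk1 and Oprl1 were under it in each group and none was called. Of the other precursors, Pdyn and Pnoc were under it, and Pomc read 5.97, 5.91 and 5.49 with no call.

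For Areg, the remaining mediator, the neighbouring EGF pathway genes were read. Of 16 measured ligands, receptors and shedding enzymes, 1 rose in Treg against TN, 2 rose in Treg against GFPKO and none was called in GFPKO against TN, where 3 (Egf, Btc and Erbb2) had an unadjusted p under 0.05. Erbb3, a receptor of neuregulins, rose by 0.67 in Treg against TN (adjusted p = 0.0013) and was 0.56 above GFPKO. Its other probe set, under the silent gene level, gave 0.25 and -0.17 and was not called (adjusted p = 0.367 and 0.51). The Erbb3 call against GFPKO was also lost when probe sets were averaged (adjusted p = 0.263). Hbegf, another Egfr ligand, read 5.20 ± 0.33 in Treg (n = 5), 4.66 ± 0.12 in TN (n = 3) and 4.50 ± 0.24 in GFPKO (n = 3). Its excess over GFPKO (0.70, adjusted p = 0.0203) was lost in 6 of 19 alternative fits, among them those without Treg replicate 3 (adjusted p = 0.0507) and without GFPKO replicate 1 or 2 (adjusted p = 0.0521 and 0.113). The other Hbegf probe set, above the silent gene level, gave a larger excess over GFPKO of 1.52 (adjusted p = 0.00048). The Erbb3 and Hbegf calls against GFPKO were both lost when arrays were centred on their medians. Adam17, the sheddase of Areg, read 7.74, 7.77 and 7.68 in TN, Treg and GFPKO. Egfr read 6.14, 6.13 and 6.15, without a call.

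Areg in regulatory T cells belongs to a tissue repair programme, of which 14 genes were measured. Against TN, 8 rose and 1 fell in Treg and 4 rose and none fell in GFPKO, and 2 rose and 2 fell in Treg against GFPKO. Klrg1, an inhibitory lectin-like receptor, read 8.94 ± 0.21 in Treg (n = 5), 4.46 ± 0.17 in TN (n = 3) and 4.60 ± 0.46 in GFPKO (n = 3), so that Treg was higher by 4.47 and 4.34. Nfil3 rose by 2.59 in Treg and 2.25 in GFPKO, and Ptger4, a prostaglandin E2 receptor, by 1.14 and 0.93; its other probe set gave 1.37 and 1.10, the latter not called (adjusted p = 0.0544). Gata3 rose by 0.78 in Treg against TN, and Rora by 0.79, the latter a call lost in 9 of 19 alternative fits. Of 8 further Rora probe sets, 2 above the silent gene level gave 1.21 and 0.82 and were called (adjusted p = 0.0018 and 0.0233), 2 under it were called and 4 were not. Cxcr6 fell by 2.11 in Treg against TN, and Il18r1 was lower in Treg than in GFPKO by 1.47. Pparg and Il33 were under the silent gene level, and Il1rl1, the receptor of IL-33, had no probe set in the gene table. The count in GFPKO depended on 1 array, with 8 genes higher without GFPKO replicate 3, and was 2 with the actin covariate.

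Other secreted or surface suppressive molecules fell into several patterns. Of 29 measured, 9 rose and 2 fell in Treg against TN, 7 rose and 2 fell in GFPKO against TN, and 6 rose and 3 fell in Treg against GFPKO. Itgb8, which activates latent TGF-beta, and Gzmb were called in Treg alone against TN, by 2.66 and 2.64, and Treg exceeded GFPKO by 2.02 and 2.83. Entpd1 (CD39) and the decoy receptor Il1r2 were graded like Penk: Entpd1 rose by 2.89 in Treg and 1.48 in GFPKO, and Il1r2 by 3.34 and 1.92, with Treg above GFPKO by 1.41 and 1.42. For Entpd1 the rise in GFPKO rests on 1 probe set: another above the silent gene level gave 0.61 (adjusted p = 0.17) and a dimmer one 0.25 (adjusted p = 0.491), while both were called higher in Treg than in TN and GFPKO. Nt5e (CD73) rose by 2.33 in Treg and 2.72 in GFPKO (1.02 and 1.10 by its next probe set, also called), and these 2 groups were not called apart (adjusted p = 0.320). The chemokine Ccl20 read 7.66 ± 0.16 in GFPKO against 4.28 ± 0.10 in Treg, and Ccl5 5.25 ± 0.61 in GFPKO against 8.92 ± 0.13 in Treg. Tgfb1 read 6.79, 7.33 and 7.07 in TN, Treg and GFPKO and was not called.

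The genes whose levels over the 11 arrays were most like each mediator were taken from 9222 genes with a group mean above the silent gene level. The arrays share their groups, so such a correlation mostly reflects the 3 group means, and the correlation of deviations from these means is given after it. For Ebi3 they were Csf1 (r = 0.991, within groups 0.78), Klrg1 (0.990, 0.57), Abhd4 (0.990, 0.92) and Sp6 (0.989, 0.75). For Penk they were Lrig1 (0.990, 0.21), Src (0.990, 0.72), Cd83 (0.988, 0.34) and Vav2 (0.987, 0.51). Il10 was most like Rnase4 (0.970, 0.57), Birc3 (0.965, 0.69), Slc35g1 (0.965, 0.43) and Arhgap20 (0.964, 0.56). Fgl2 was most like Vwa5a (0.973, 0.80), Slc9a7 (0.972, 0.92), Zdhhc2 (0.971, 0.79) and Tlr1 (0.970, 0.85). Il12a, which was under the silent gene level throughout, was most like U2af2 (0.943, 0.94), Impdh1 (0.937, 0.98), Clip4 (0.928, 0.93) and Man2b1 (0.919, 0.93), nearly all of it within groups. Among the mediators, Ebi3 and Penk had the highest correlation over the 11 arrays (0.969, within groups 0.62). Ebi3 and Fgl2 correlated at 0.875 over all arrays but at -0.79 within groups, and Il12a and Ebi3 at 0.18 over all arrays but at 0.84 within groups.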

How the data were processed

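The 11 arrays (3 TN, 5 Treg, 3 GFPKO) were grouped by their titles. The authors deposited log2 values made with RMA, per the submitters' processing notes; its version and settings are not given in the sources used here. RMA normalises by quantiles, so a change of total RNA cannot be seen, and the number of arrays limits the precision. Of 45101 probe sets, 34945 had a single symbol in the platform's gene table, 34741 of them matched to RefSeq by gene ID, for 18193 genes; 9211 probe sets were not listed and 932 had several symbols. The probe set with the highest mean stood for a gene.

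All 3 groups were fitted together with limma 3.58.1 in R 4.3.3 (lmFit, eBayes), with Benjamini-Hochberg adjustment over all genes and calls at an adjusted p under 0.05; the script was tested on simulated data. Genes named beside the mediators are those of the pathway and marker lists, and the 4 genes with the highest correlation to each mediator. The mediators and the lists were chosen with earlier results of these data known, so the counts of list members are descriptions. Alternatives were the groups compared alone, centring, a second quantile normalisation, a filter on low genes, another prior, the replicate block, an actin covariate, averaged or other probe sets, and each array left out. No pair of arrays held identical values.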

Additional observations from a re-analysis of the deposited data

How the results depend on the processing

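Under the alternatives run for each mediator, every call of Il10, Ebi3, Fgl2 and Penk kept its direction and stayed under an adjusted p of 0.05 (limma); the weakest were Fgl2 for Treg over GFPKO (adjusted p up to 0.0347) and Il10 for Treg against GFPKO (up to 0.0297, differences from -1.18 to -0.72). The Il12a differences, never called, changed sign: for Treg minus TN to 0.0225 with the actin covariate and 0.0316 without TN replicate 3 (with an array left out, from -0.1169 to 0.0316), for GFPKO minus TN to 0.0865 with the actin covariate, and for Treg minus GFPKO to -0.0062 with centred arrays, -0.0641 with the actin covariate and -0.0196 without GFPKO replicate 1 (with an array left out, from -0.0196 to 0.4289). Over all genes, 1029 were called for GFPKO against TN, 562 with these groups alone and 570 with the actin covariate, and between 644 (without TN replicate 1) and 1868 (without GFPKO replicate 3) with an array left out. For Treg against GFPKO, 1716 were called, 1049 with the replicate block and 811 with the actin covariate, and between 1134 (without GFPKO replicate 1) and 3421 (without GFPKO replicate 3) with an array left out. The cause was not tested. What a shared replicate number stands for is not given in the labels. In replicate order, deviations from the group means correlated at 0.21, -0.03 and -0.14 for TN and Treg. For TN and GFPKO the values were 0.16, 0.07 and 0.06, and for Treg and GFPKO 0.51, -0.07 and -0.22. Replicate 1 had the highest correlation in each pair of groups, and whether its arrays shared a factor was not tested. Of the mediators' calls, the block of replicate numbers changed that of Fgl2 for GFPKO over TN alone (adjusted p = 0.0287). Signals near the silent gene level limit what can be said of Il12a, of Ebi3 and Fgl2 in TN and GFPKO, of Il10 in TN and Treg, and of Penk in TN.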
